A study of Mus musculus with 12 samples.

Results

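The transcripts of 52 mouse genes named as DEAD-box and DEAH-box RNA helicases were followed through oocyte growth and meiotic maturation in wild-type (WT) and Zar1/2-null females. The members were all genes of the deposited table of 23230 genes whose symbol begins with Ddx or Dhx followed by a number, without Ddx4 and Ddx6. A choice by symbol does not make each of them an RNA helicase, and Ddx11 is grouped below as a DNA helicase. The word helicase stands below for any member. They comprised 36 Ddx and 16 Dhx genes. Of the 52, 45 reached at least 1 FPKM (mapped fragments scaled to transcript length and library size) in at least 1 library and were tested, together with 11502 genes in all that passed the same limit. The study asked how the loss of the oocyte proteins ZAR1 and ZAR2 changes the maternal transcriptome. It compared 6 groups of 2 libraries, each made from 10 oocytes of C57BL6/ICR hybrid mice: WT and Zar1/2-null oocytes at the growing, germinal vesicle (GV) and metaphase II (MII) stages. The labels give 13.5 days as the age of the females for growing oocytes (the study's methods give a younger age) and 21 days for fully grown GV oocytes, which were taken 44 h after PMSG, a hormone that stimulates follicle growth. MII oocytes were ovulated and taken 16 h after hCG, the hormone that triggers ovulation. For Zar1/2-null oocytes MII is only the label of that collection: per the study's microscopy, ovulated oocytes of these females had stopped within the first meiotic division, so effects of genotype and of meiotic stage cannot be told apart there. In the study, WT oocytes held in meiosis I by nocodazole still degraded the selected mRNAs measured by RT-qPCR. The study proposes that lack of ZAR1/2, not the arrest, delays this decay. The 12 libraries include no such treatment. Both genes were disrupted by CRISPR-Cas9 in the whole animal. The labels do not say how many females gave the oocytes or whether the 2 libraries of a group came from different females, so p-values measure the spread between these libraries, which may be technical.

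RNA helicases use ATP to open RNA duplexes or to pull proteins off RNA, and they take their family name from the amino acids of a conserved motif, Asp-Glu-Ala-Asp (DEAD) or Asp-Glu-Ala-His (DEAH). They act at each step in the life of an RNA, from splicing and ribosome assembly in the nucleus to export, translation and decay in the cytoplasm. A growing oocyte stores mRNA and ribosomes. The fully grown oocyte stops transcription, so that its helicase mRNAs are thereafter a stock that can be kept or lost but not renewed until the embryo's own genes are switched on.

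The members were grouped by textbook role. Ribosome assembly held 16, of which 15 were tested (Ddx10, Ddx18, Ddx21, Ddx24, Ddx27, Ddx31, Ddx47, Ddx49, Ddx50, Ddx51, Ddx52, Ddx54, Ddx55, Ddx56 and Dhx33), and splicing held 10, of which 9 were tested (Ddx39b, Ddx41, Ddx42, Ddx46, Dhx8, Dhx15, Dhx16, Dhx35 and Dhx38). Translation and cytoplasmic mRNA held 7 (5 tested: Ddx3x, Ddx25, Dhx29, Dhx34 and Dhx36), and transcription and nuclear ribonucleoprotein (RNP) particles held 6 (5 tested: Ddx1, Ddx5, Ddx17, Ddx20 and Dhx9). Export of mRNA held 3 (Ddx19a, Ddx19b and Ddx39), antiviral RNA sensing 3 (1 tested: Ddx58), mitochondria 2 (Ddx28 and Dhx30) and DNA helicases 1 (Ddx11), and 4 were given no role (Ddx59, Dhx32, Dhx40 and Dhx57). The 7 members under 1 FPKM in all 12 libraries were Ddx23 (splicing, at most 0.512 FPKM), Dhx37 (ribosome assembly, at most 0.213 FPKM), Ddx60 and Dhx58 (antiviral sensing, at most 0.752 and 0.234 FPKM), Ddx43 (at most 0.307 FPKM), Ddx26b (at most 0.0256 FPKM) and the Y-linked Ddx3y, which was listed at 0 in 11 of the 12 libraries.

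The motif that names the families was located in the coding sequence of the longest coding transcript of each gene but 1 (GENCODE vM1 annotation of mm9). Of the 36 Ddx genes, 24 carried DEAD, 3 DEVD, 2 DECD, 1 DESD, 1 DECH and 1 DEVH, and none was accepted by the search in 3. These 3 (Ddx1, Ddx11 and Ddx26b) each held a candidate motif. It was passed over for want of a Gly-Lys-Thr-like stretch at a set distance upstream, which the search also required. The motif can therefore not be called absent from them. Ddx3y, with no coding transcript in the set used, was not searched. Of the 16 Dhx genes, 8 carried DEAH, 4 DEVH, 2 DEIH and 1 DECH, and none was found in 1. The 30 bases around the motif are shown for some of the genes on which the results below turn, among them the Ddx19 and Ddx39 pairs compared at the end. They are given on the coding strand, with the 4 codons of the motif in capitals. Ddx19a and Ddx19b are identical over all 30 bases, and Ddx39 and Ddx39b differ at 7 of 30. Ddx39 and Ddx39b both read DECD, and Dhx57 reads DEVH.
Ddx41: ctagccctgGATGAAGCTGACcgcatgatt
Ddx47: ttggtcatgGATGAAGCAGACcggatactg
Ddx46: gttgttttaGATGAAGCAGACagaatgttt
Ddx19a: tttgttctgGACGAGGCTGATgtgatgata
Ddx19b: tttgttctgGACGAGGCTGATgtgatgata
Ddx39: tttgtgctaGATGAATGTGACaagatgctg
Ddx39b: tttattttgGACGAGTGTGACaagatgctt
Dhx15: ataattcttGATGAGGCCCATgaaagaaca
Dhx36: attgtacttGATGAAATTCATgaaaggaat
Dhx57: atcattgttGATGAAGTTCATgagaggaca

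All values are FPKM that the authors had multiplied by a factor from an equal amount of synthetic ERCC spike-in RNA in each lysate, so they stand for RNA per oocyte rather than for a share of the library. RNA was copied from its poly(A) tail, so a level is that of RNA reached by an oligo-dT primer. The table holds no counts. From the steps between its lowest values, the libraries were estimated to hold about 9850000 to 13330000 fragments, and 1 fragment of a 2-kb transcript was worth 0.00903 to 0.0464 FPKM after scaling. WT GV replicate 2 and WT MII replicate 2 were set by their low values relative to WT growing replicate 1, since their own steps gave about 2 times fewer. The study lists more reads for each of these libraries than for replicate 1 of the same group. The 11 oocyte markers were all kept and summed to 2423 to 19930 FPKM per library. Granulosa and cumulus markers (5 of 13 kept, Ptx3 at 0 in all libraries) summed to 5.14 to 33.0 FPKM, immune markers (1 of 6 kept) to 0.524 to 3.15 FPKM and epithelial markers (1 of 4 kept, Krt19 at 0 in all) to 14.1 to 30.1 FPKM. Zar1l, under which Zar2 is listed, had 639 and 644 FPKM in WT growing and 17.5 and 13.2 FPKM in Zar1/2-null growing oocytes, and at GV and MII its WT and Zar1/2-null libraries did not overlap either, with the Zar1/2-null ones lower. Zar1 mRNA was still present in Zar1/2-null oocytes (407 and 460 FPKM at the growing stage, 136 and 203 at GV, 190 and 194 at MII), and its MII level was above that of WT (83.6 and 72.4 FPKM). The Zar1 null allele is described as a short deletion with an early stop codon and the FPKM covers the whole gene model, so nearly all of the transcript can still be counted and this level is no check of the labels. Summed granulosa and cumulus markers and summed epithelial markers were lower in both Zar1/2-null than in both WT libraries of growing and GV oocytes (in growing oocytes 22.5 and 14.4 against 33.0 and 29.2 FPKM for granulosa and cumulus markers) and higher at MII, where summed oocyte markers were also higher (6823 and 5779 against 2748 and 2423 FPKM). At GV, summed oocyte markers were lower in both Zar1/2-null libraries (9607 and 10769 against 13530 and 11367 FPKM). Summed immune markers were higher in Zar1/2-null growing and MII oocytes. The part of these markers in the differences below was not tested. In pooled oocytes a lower value in some oocytes and a lower value in all of them cannot be told apart, nor can fewer cells of a type and less RNA per cell.

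Helicase transcripts were abundant in growing oocytes. In WT growing oocytes 44 of the 52 members had a mean of at least 1 FPKM and 27 had at least 10 FPKM, and in WT GV oocytes the numbers were 43 and 22. In WT MII oocytes they were 27 and 6. The 5 members with the highest mean in WT GV oocytes were Ddx3x, Ddx5, Ddx18, Ddx39 and Ddx24, and since FPKM is a level per length, these can be compared between genes. Ddx3x, an X-linked helicase that helps ribosomes start on structured mRNAs, led with 139 and 107 FPKM. Ddx5, which acts in transcription and splicing, had 67.7 and 52.4 FPKM, and Ddx18, a nucleolar helicase of the large ribosomal subunit, had 60.9 and 57.9 FPKM. Ddx39, which loads export factors on mRNA, had 57.2 and 48.5 FPKM, and Ddx24, another nucleolar helicase, had 48.2 and 42.8 FPKM. Both Ddx3x libraries lay above all other members, whereas the libraries of Ddx5 overlapped those of Ddx18 and of Ddx39. Ddx18 lay above Ddx39, and Ddx39 above Ddx24, by gaps of under 1 FPKM, smaller than the distance between the 2 libraries of each of these genes. Ddx3x stood above 92.7% of the 11502 genes in WT GV oocytes. At the other end, Dhx34 and Ddx54 had means of 0.955 and 0.544 FPKM.

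**Figure D1:**
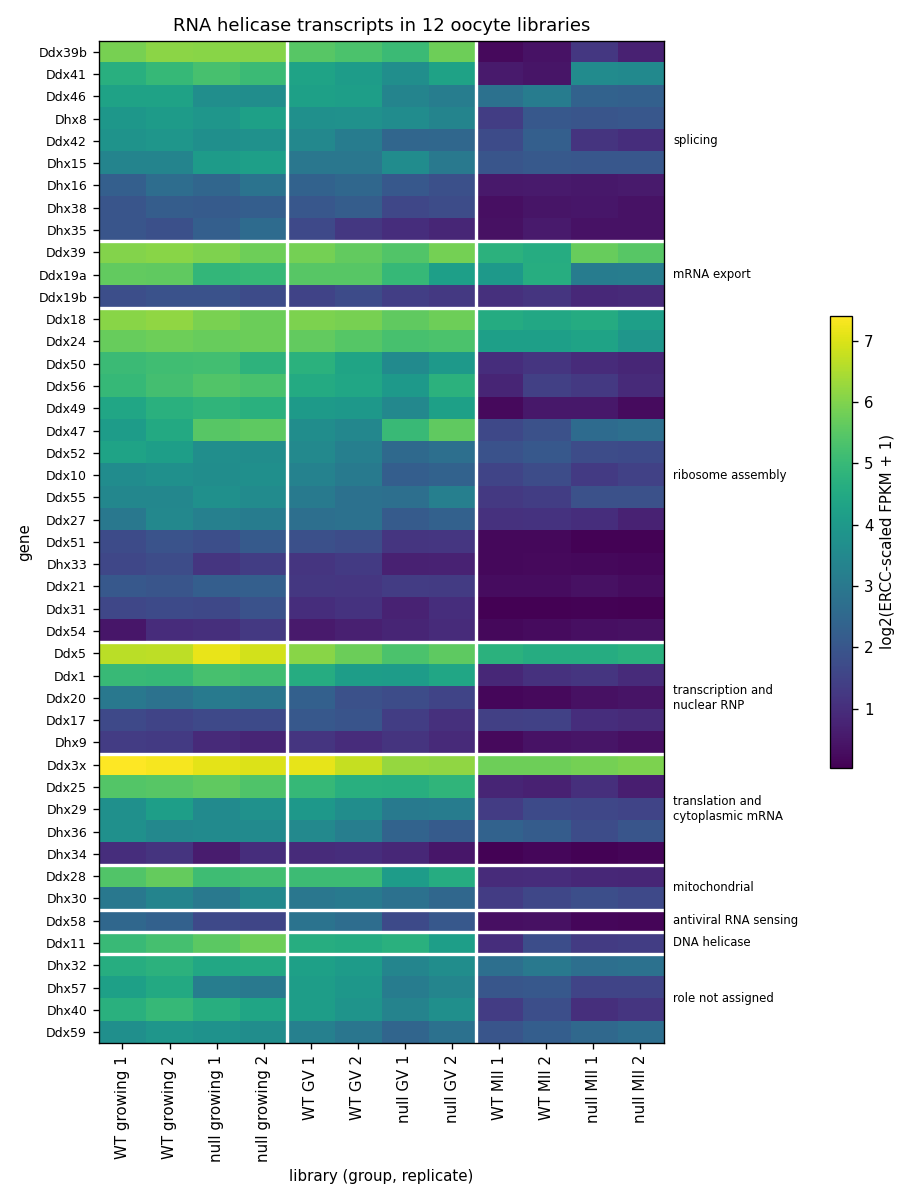
Level of the 45 tested helicase transcripts in each of the 12 libraries, as log2(ERCC-scaled FPKM + 1), with genes in rows grouped by role and ordered by their WT GV mean, and libraries in columns (null, Zar1/2-null). The 4 MII columns on the right are darker than the growing and GV columns for most genes, Ddx41 is dark in the 2 WT MII libraries only, and Ddx47 is lighter in the Zar1/2-null than in the WT columns of each stage.

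The first question was which helicase mRNAs differed between Zar1/2-null and WT oocytes at each stage. In the ERCC-scaled values Ddx47 was higher in Zar1/2-null oocytes at all 3 stages, and Ddx41 and Ddx39 were higher at MII. Ddx19a, Ddx46 and Dhx57 were lower at all 3 stages in these values. The calls of all 3 at GV, and those of Ddx19a and Ddx46 in growing oocytes, were lost when the scaling was changed. For each gene, limma was fitted to log2(FPKM + 1) of the 12 libraries together, with Benjamini-Hochberg adjustment over the 11502 genes and a threshold of 0.05 on the adjusted p (an exact permutation test of 2 against 2 libraries cannot go below 0.333). A log2 difference on this scale understates the change of a gene of low level. Since every gene of a library carries the same ERCC factor, the counts of members are given with their background over all tested genes and with their value after the factor was divided out.

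In growing oocytes 3 of the 45 helicases rose and 7 fell in the absence of Zar1/2, where 10.6% of all 11502 genes were called higher and 24.4% lower. The members' median log2 difference was -0.00, that of all genes -0.16. With the ERCC scaling removed, 6 rose and 2 fell, beside 14.9% and 12.3% of all genes, and the median of all genes moved up by 0.24. Ddx47 (chr6:134961630-134973794, plus strand, mm9), a nucleolar helicase needed to process the precursor of 18S ribosomal RNA, had 16.2 and 21.6 FPKM in WT and 44.2 and 46.6 FPKM in Zar1/2-null libraries. Each Zar1/2-null value was more than that of either WT library, and the log2 difference was 1.24 ± 0.20 (SE, adjusted p = 0.000957 by limma with Benjamini-Hochberg adjustment). Dhx15, which takes spent spliceosomes apart, had 9.17 and 9.32 against 15.9 and 17.3 FPKM (0.78 ± 0.17, adjusted p = 0.00548, limma with Benjamini-Hochberg adjustment). The third was Dhx35, another spliceosome-associated helicase, with 2.97 and 2.53 against 3.77 and 5.05 FPKM. The 3 that rose were called under each of the 3 scalings tried. No member passed the study's 3-fold limit, which 0.982% of all genes passed upward and 3.54% downward. The 2 libraries of each genotype did not overlap in 12 members that were higher and 15 that were lower, beside 22.4% and 47.4% of all genes.

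Dhx57 fell most in growing oocytes. This gene (chr17:80637644-80689816, minus strand) encodes a helicase of little known function and had 17.5 and 21.8 FPKM in WT and 7.83 and 7.05 FPKM in Zar1/2-null libraries (log2 difference -1.29 ± 0.15, adjusted p = 0.000133, limma with Benjamini-Hochberg adjustment). It overlaps Morn2 on the other strand, and without strand information reads of the 2 genes cannot be told apart where they overlap. Ddx58, which encodes RIG-I, the sensor of viral RNA with a triphosphate end, had 4.62 and 3.99 against 2.13 and 1.96 FPKM (-0.80 ± 0.15). These 2 kept their call under each scaling. Ddx46, which helps U2 RNA bind the branch point of introns, had 18.5 FPKM in both WT libraries and 11.8 and 11.6 FPKM in Zar1/2-null libraries (-0.62 ± 0.14). Ddx19a, of the family that releases mRNA on the outer face of the nuclear pore, had 48.9 and 47.3 against 29.1 and 30.1 FPKM (-0.68 ± 0.24), and Ddx52, of the small ribosomal subunit, had 18.7 and 16.9 against 11.7 and 11.4 FPKM (-0.58 ± 0.15). Dhx9 and Dhx33 had under 3 FPKM in each library, with log2 differences of -0.45 and -0.41. In these 5 genes the libraries did not overlap either, but the calls were lost with the ERCC scaling removed. Only 4 members fell without Zar1/2-null replicate 2 or without WT replicate 1, and 5 of the 10 calls (Ddx46, Ddx47, Ddx58, Dhx15 and Dhx57) were kept whichever of the 4 growing libraries was left out. Ddx19a lost its call in each case (adjusted p = 0.136 to 0.170, limma with Benjamini-Hochberg adjustment). Ddx52 and Dhx9 lost theirs without Zar1/2-null replicate 2 or WT replicate 1, Dhx33 without Zar1/2-null replicate 1 or WT replicate 2, and Dhx35 without Zar1/2-null replicate 2 or either WT library.

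At the GV stage 22 of 45 members fell and 1 rose, beside 40.6% of all genes called lower and 2.83% higher, and the median log2 difference was -0.45 for the members and -0.38 for all genes. The share of members that fell was thus near that of all genes. With the ERCC scaling removed, 4 fell and 2 rose, and with library medians made equal 1 fell and 3 rose. The median of all genes moved up by 0.34 and 0.41 under these scalings. Without WT GV replicate 1, 12 fell, and without Zar1/2-null GV replicate 2, 2 rose. The fall was spread over the roles, with 6 of 15 members of ribosome assembly, 5 of 9 of splicing, 3 of 5 of translation, 2 of 5 of transcription and nuclear RNP, 1 of 3 of mRNA export, 1 of 2 of the mitochondrial members, 3 of 4 without a role and Ddx58.

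Ddx47 was the 1 helicase that rose at GV, with 11.5 and 9.83 FPKM in WT and 31.5 and 47.7 FPKM in Zar1/2-null libraries. Its group means differed 3.72-fold (log2 difference 1.78 ± 0.20, adjusted p = 9.72e-05, limma with Benjamini-Hochberg adjustment). It was the 1 member past the study's 3-fold limit at this stage, which 0.461% of all genes passed upward and 4.2% downward. Without regard to the test, the libraries did not overlap in 4 members that were higher and 30 that were lower, beside 6.79% and 63.6% of all genes. Dhx36, which unwinds G-quadruplexes in mRNA, fell most, from 10.3 and 8.07 to 4.24 and 3.41 FPKM (-1.07 ± 0.17, adjusted p = 0.000597, limma with Benjamini-Hochberg adjustment). Ddx47 and Dhx36 kept their calls under each scaling and whichever of the 4 GV libraries was left out.

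Ddx46 had 17.6 and 16.9 FPKM in WT and 9.20 and 7.93 FPKM in Zar1/2-null GV libraries (-0.93 ± 0.14). Ddx19a had 44.3 and 44.1 against 30.1 and 17.4 FPKM (-0.92 ± 0.24), with its 2 Zar1/2-null libraries far apart. Dhx57 had 16.7 and 14.3 against 7.69 and 9.52 FPKM (-0.78 ± 0.15). These 3 thus lay below WT at GV as in growing oocytes, with no overlap between genotypes in the ERCC-scaled values. None of the 3 kept its GV call under each scaling. With library medians made equal, Dhx36 was the 1 member still called lower.

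The most abundant member also fell: Ddx3x (chrX:12858096-12871178, plus strand) had 139 and 107 FPKM in WT and 75.1 and 70.8 FPKM in Zar1/2-null GV libraries (-0.74 ± 0.15). Ddx10, a nucleolar helicase, had 8.81 and 7.16 against 3.66 and 4.07 FPKM (-0.88 ± 0.15), and Ddx58 had 6.14 and 5.30 against 2.21 and 3.21 FPKM (-0.87 ± 0.15). Ddx42, a partner of the U2 particle, had 10.2 and 7.66 against 4.48 and 4.60 FPKM (-0.83 ± 0.19). Ddx50, a nucleolar relative of Ddx21, had 25.5 and 19.1 against 10.9 and 14.8 FPKM (-0.75 ± 0.19), and Ddx28, which helps build the mitochondrial ribosome, had 33.2 and 32.8 against 16.1 and 23.1 FPKM (-0.74 ± 0.17). Ddx28 overlaps Dus2l on the other strand. The other 12 that fell were Ddx5, Ddx17, Ddx27, Ddx51, Ddx52, Ddx59, Dhx16, Dhx29, Dhx32, Dhx33, Dhx35 and Dhx38, with log2 differences from -0.78 (Ddx17) to -0.45 (Dhx38), and that of Ddx5 (-0.48) turned to 0.05 with library medians made equal. Ddx19a lost its call without WT GV replicate 1 or without Zar1/2-null GV replicate 2 (log2 difference -0.91 and -0.54). Ddx50 lost its call without WT GV replicate 1 or Zar1/2-null GV replicate 1 (-0.55 in each case), and Ddx42 without WT GV replicate 1 (-0.64). Of the other 12, Ddx17, Ddx51, Ddx52 and Dhx33 kept their calls whichever GV library was left out, and 7 of the remaining 8 (all but Dhx38) lost them without WT GV replicate 1.

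**Figure D2:**
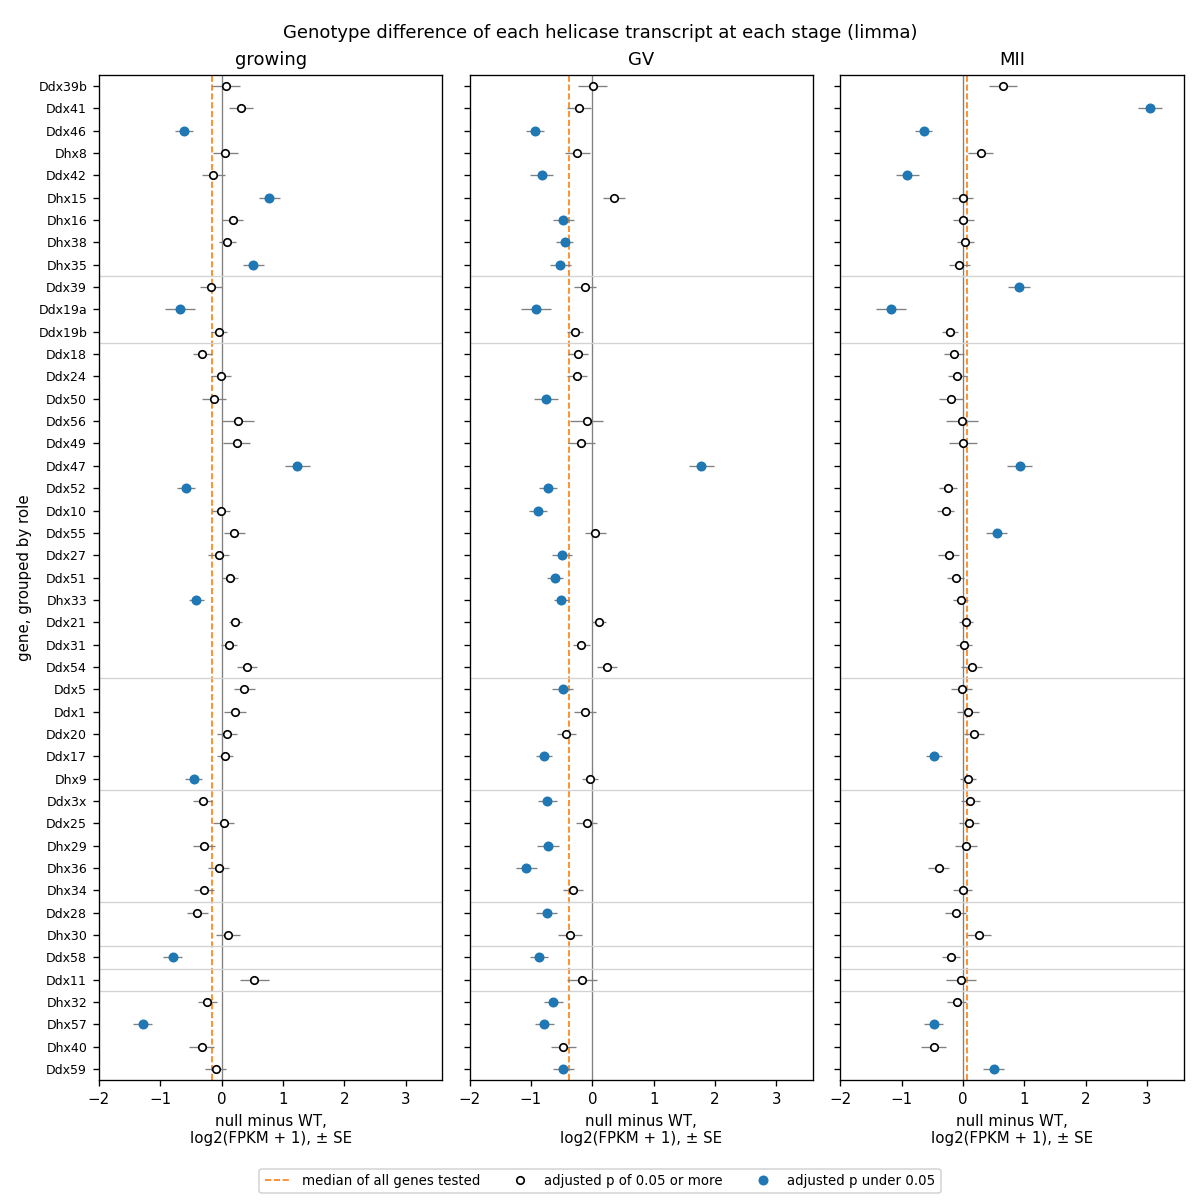
Difference between Zar1/2-null and WT oocytes for each of the 45 helicase transcripts in growing, GV and MII oocytes, in log2(FPKM + 1) with its standard error from limma, filled where the adjusted p was under 0.05. The dashed line is the median of all 11502 genes, which lies at -0.16, -0.38 and 0.06, and Ddx47 (right of zero at each stage) and Ddx41 (3.04 at MII) stand farthest to the right.

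In the oocytes collected as MII, where genotype and meiotic stage cannot be told apart, 5 of 45 helicases were higher and 5 lower in Zar1/2-null oocytes, beside 21.5% of all genes called higher and 10.3% lower. Ddx41 (chr13:55631771-55638019, minus strand), linked to splicing and to the sensing of cytosolic DNA, had 0.492 and 0.372 FPKM in the WT MII libraries and 11.1 and 10.5 FPKM in the Zar1/2-null ones. These levels stood for about 47.6 and 45.5 estimated fragments against about 926 and 1202 (22.6 in WT MII replicate 2 with the depth from its own steps), so the gene was near the bottom of the WT MII libraries but not at the limit of counting. The group means differed 25.0-fold and the log2 difference was 3.04 ± 0.20 (adjusted p = 3.38e-07, limma with Benjamini-Hochberg adjustment). At the earlier stages Ddx41 did not pass the test: WT and Zar1/2-null libraries had 24.7 and 30.1 against 37.0 and 32.1 FPKM in growing oocytes, and 18.6 and 16.1 against 11.8 and 18.3 FPKM at GV. It was the 1 member past the 3-fold limit at MII, which 7.49% of all genes passed upward and 1.32% downward. The libraries did not overlap in 11 members that were higher and 15 that were lower, beside 43.5% and 27.8% of all genes.

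Ddx39 (chr8:86239076-86250791, plus strand) had 26.4 and 23.1 FPKM in WT and 50.8 and 44.3 FPKM in Zar1/2-null MII libraries (log2 difference 0.91 ± 0.18, adjusted p = 0.00243, limma with Benjamini-Hochberg adjustment). Ddx47 had 2.08 and 2.61 against 5.12 and 5.57 FPKM (0.93 ± 0.20). Both lay clear of the WT libraries, and Ddx39, Ddx41 and Ddx47 were called under each scaling and without any 1 MII library. Ddx39 overlaps Cd97 on the other strand. Ddx55, of the large ribosomal subunit, had 1.38 and 1.59 against 2.63 and 2.65 FPKM (0.55 ± 0.17), and Ddx59 had 2.93 and 3.73 against 4.79 and 5.46 FPKM (0.50 ± 0.17). Of the 5 higher calls 4 held under each scaling, so the call of either Ddx55 or Ddx59 did not.

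Of the 5 helicases that fell at MII, Ddx19a and Ddx42 were 2.48-fold and 2.72-fold below WT. Ddx19a (chr8:113498896-113521700, minus strand) had 15.1 and 23.8 FPKM in WT and 7.66 and 8.0 FPKM in Zar1/2-null libraries (-1.18 ± 0.24, adjusted p = 0.00300, limma with Benjamini-Hochberg adjustment). Ddx42 had 2.25 and 3.79 against 1.21 and 1.01 FPKM (-0.91 ± 0.19). Ddx46 (chr13:55736388-55782617, plus strand) had 5.92 and 7.75 against 4.05 and 3.92 FPKM (-0.64 ± 0.14), Dhx57 had 2.99 and 3.15 against 1.93 and 1.90 FPKM (-0.48 ± 0.15), and Ddx17, a close relative of Ddx5, had 1.68 and 1.73 against 0.987 and 0.896 FPKM (-0.48 ± 0.13). None of these 5 genes overlapped between the genotypes. Their calls held under each scaling, while other members joined them. With the ERCC scaling removed 14 fell and 5 rose, beside 23.4% and 24.6% of all genes. With equal library medians 18 fell and 5 rose, beside 27.6% and 24.7% of all genes. Leaving out 1 MII library left 3 or 4 members higher (3 without replicate 1 of either genotype) and 2 or 3 lower (2 without WT MII replicate 2). Dhx57, Ddx17, Ddx55 and Ddx59 lost their calls without any 1 of the 4 libraries, and Ddx46 without WT MII replicate 2 (log2 difference -0.47, adjusted p = 0.0545, limma with Benjamini-Hochberg adjustment).

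**Figure D3:**
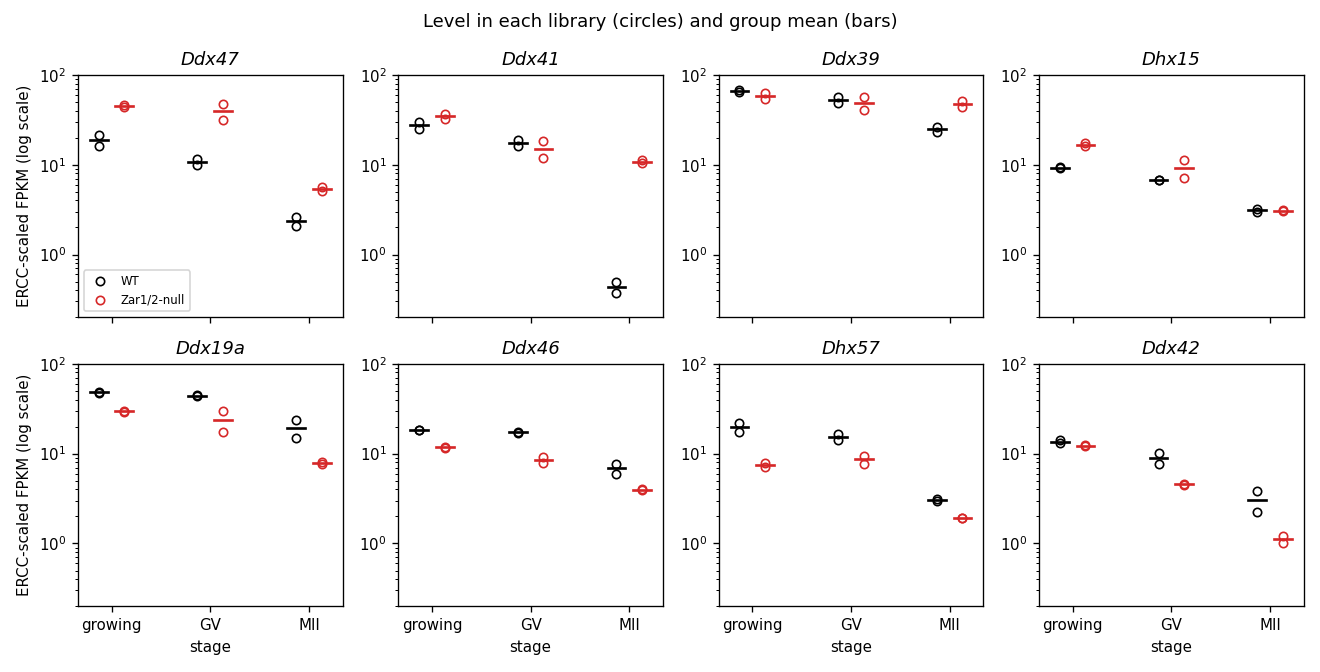
ERCC-scaled FPKM (log axis) of 8 helicase transcripts in each library (circles) with the mean of the 2 libraries (bar), for WT (black) and Zar1/2-null oocytes (red) at the growing, GV and MII stages. Ddx47 is higher in Zar1/2-null oocytes at each stage, Ddx41 lies far above WT at MII (0.492 and 0.372 against 11.1 and 10.5 FPKM), and Ddx19a, Ddx46 and Dhx57 are lower at each stage.

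The deposited scaling decided much of the balance between higher and lower calls. Under ERCC scaling the members split into 3 higher and 7 lower in growing oocytes, 1 and 22 at GV, and 5 and 5 at MII. With the factors removed the split was 6 and 2, 2 and 4, and 5 and 14. Of all genes, 10.6% and 24.4%, 2.83% and 40.6%, and 21.5% and 10.3% were called under ERCC scaling. With the factors removed these shares were 14.9% and 12.3%, 7.19% and 13.5%, and 24.6% and 23.4%. The 3 comparisons share no library, but a gene's calls at each stage use 1 estimate of the spread over all 12.

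**Figure D4:**
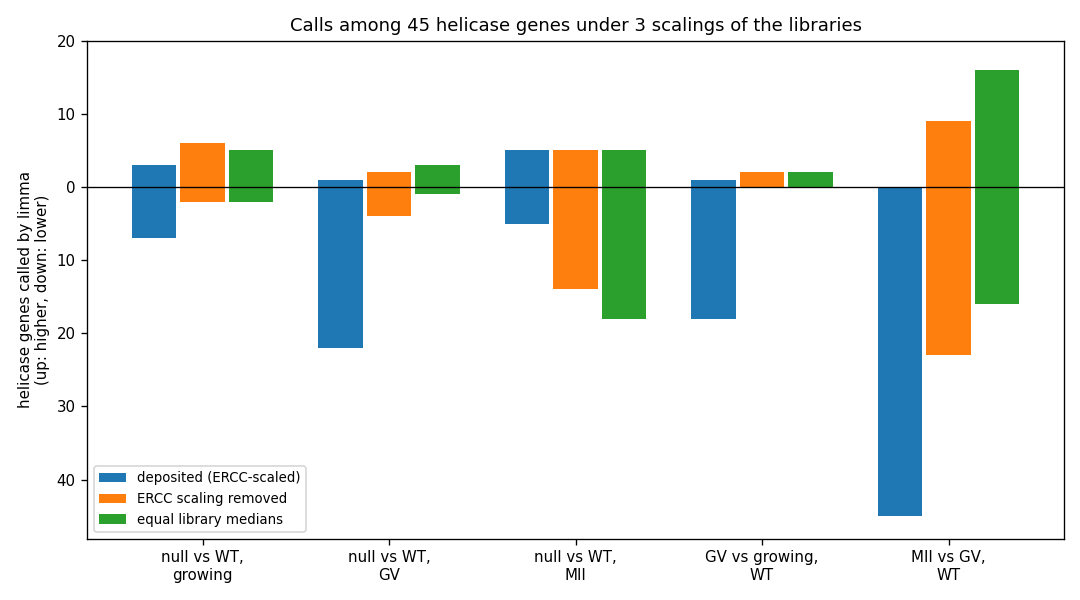
Number of the 45 helicase genes called higher (above zero) or lower (below zero) by limma in 5 comparisons, with the deposited ERCC-scaled values, with the ERCC scaling removed and with library medians made equal. Lower calls at GV go from 22 to 4 and 1, and those between WT MII and WT GV from 45 to 23 and 16.

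Whether the effect of Zar1/2 loss differed between stages was tested by interaction terms. Between growing and GV, 6 of 45 members had a lower Zar1/2-null to WT difference at GV and 0 a higher one (11.3% and 2.58% of all genes; 11 and 2 members at an unadjusted p under 0.05). The largest were Dhx35 (-1.04 ± 0.24), which had been higher in growing and was lower in GV oocytes, Dhx36 (-1.03 ± 0.24), Ddx10 (-0.88 ± 0.21), Ddx5 (-0.85 ± 0.24) and Ddx17 (-0.84 ± 0.19). None of the 6 was called once the ERCC scaling was removed, when 3.72% of all genes were called lower. Leaving out a library left 1 to 6 calls, with 1 without Zar1/2-null growing replicate 2 or WT GV replicate 1 and 3 without either WT growing library.

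Between GV and MII, a term that also holds the different meiotic stage of Zar1/2-null oocytes, 8 members had a higher difference at MII and 1 a lower one, beside 33.9% and 0.643% of all genes. The median of all genes for this term was 0.48 and that of the members 0.45, which removing the ERCC scaling moved to 0.03 and -0.17. Ddx41 stood far from both, at 3.27 ± 0.28 (adjusted p = 5.88e-06, limma with Benjamini-Hochberg adjustment), and kept the call under each scaling. Ddx39 (1.04 ± 0.26), Ddx59 (0.98 ± 0.24) and Ddx3x (0.85 ± 0.22) followed, and lost their calls with the ERCC scaling removed. Ddx47 was the 1 member with a smaller excess at MII than at GV (-0.85 ± 0.29, adjusted p = 0.0422, limma with Benjamini-Hochberg adjustment), called under each scaling but in only 1 of 8 fits without 1 library. Higher calls numbered 3 without WT GV replicate 1, 4 without WT MII replicate 1 or either Zar1/2-null MII library, and 5 without Zar1/2-null GV replicate 1.

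The second question was how helicase mRNAs change as WT oocytes grow and mature. From growing to GV oocytes 18 of 45 members fell and 1 rose, beside 28.7% of all genes called lower and 2.77% higher. Members of ribosome assembly made up 9 of the 18 that fell, out of 15 tested. Of those with a mean of at least 5 FPKM, Ddx52 fell most, from 18.7 and 16.9 to 10.4 and 8.25 FPKM (log2 difference -0.87 ± 0.15), followed by Dhx40 (25.2 and 30.6 to 16.7 and 13.4 FPKM, -0.85 ± 0.20) and Ddx20, a partner of SMN in the assembly of spliceosomal RNPs (6.96 and 6.08 to 3.88 and 2.62 FPKM, -0.84 ± 0.16). Ddx47 went from 16.2 and 21.6 to 11.5 and 9.83 FPKM (-0.76 ± 0.20), and Ddx5 from 98.7 and 101 to 67.7 and 52.4 FPKM (-0.74 ± 0.17). Of the rarer members, Ddx21, a nucleolar helicase, fell from 3.16 and 2.97 to 1.33 and 1.32 FPKM (-0.81 ± 0.11). Ddx17 was the 1 that rose, from 2.17 and 1.94 to 3.15 and 2.86 FPKM (0.39 ± 0.13), also under each scaling. None of the 18 lower calls was left after the ERCC scaling was removed, which moved the median of all genes up by 0.31. Of all genes, 3.23% were then called lower. Lower calls numbered 3 without WT growing replicate 2, 4 without WT GV replicate 2 and 11 without WT growing replicate 1, and Ddx17 was not called without any 1 of the 4 libraries. Ddx20, Ddx21 and Ddx52 kept their calls in each case, whereas Ddx5, Ddx47 and Dhx40 lost theirs without replicate 2 of either group.

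From GV to MII all 45 tested helicases were called lower in WT oocytes per oocyte, as were 93.4% of all genes (0.104% were called higher). With the ERCC scaling removed, in contrast, 23 were called lower and 9 higher, beside 47.6% and 19.7% of all genes. With equal library medians 16 were called lower and 16 higher, beside 36.4% and 35.5%. The median of all genes moved up by 0.85 and 1.26 under these scalings. Ddx54, with the lowest WT GV mean of the 45, lost its call without WT GV replicate 2 or either WT MII library. The size of the fall set members apart from each other. Among the 32 with at least 5 FPKM in WT GV oocytes, the median MII level was 22.2% of the GV level in WT and 31.0% in Zar1/2-null oocytes, beside 19.6% and 37.8% for the 6478 genes above the same limit.

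Of these 32, 10 fell more than 10-fold in WT oocytes (35.0% of the 6478 genes did) and 12 fell less than 3-fold (34.5%). Ddx39b (chr17:35378691-35390652, plus strand), which encodes the splicing and export helicase UAP56, fell most, from 43.9 and 39.1 FPKM at GV to 0.166 and 0.311 FPKM at MII. The means differed 174-fold (log2 difference -5.10 ± 0.23, adjusted p = 3.08e-09, limma with Benjamini-Hochberg adjustment), and the MII values stood for about 12.7 and 30 estimated fragments (14.9 in replicate 2 with the depth from its own steps), so the size of this fold is imprecise. Ddx28 went from 33.2 and 32.8 to 0.932 and 0.946 FPKM (-4.13 ± 0.17). Ddx25, a helicase known from male germ cells, went from 30.6 and 24.9 to 0.729 and 0.624 FPKM (-4.09 ± 0.17). Ddx41 fell 40.2-fold (-3.68 ± 0.20), and Ddx49, a nucleolar helicase that overlaps Homer3 on the other strand, went from 15.7 and 14.7 to 0.173 and 0.430 FPKM (-3.65 ± 0.22). By ratio of group means the order after Ddx39b was Ddx49 (50.5-fold), Ddx25 (41.0-fold), Ddx41 (40.2-fold) and Ddx28 (35.1-fold). These 5 were called lower under each scaling, as were 16 members in all. The share of all genes called lower under each scaling was not counted.

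The 5 most abundant members all fell less than 3-fold, unlike Ddx39b, Ddx28 and Ddx25, which were also abundant at GV. Ddx3x went from 139 and 107 to 53.6 and 54.4 FPKM, which is 43.8% of the GV mean, and Ddx39 kept 46.9%, Ddx5 41.0%, Ddx24 38.2% and Ddx18 37.0%. The 5 were called lower per oocyte (log2 differences from -1.39 to -1.06) and higher both with the ERCC scaling removed (0.32 to 0.66) and with equal library medians (0.96 to 1.30). In Zar1/2-null oocytes the MII level of Ddx39 was 97.1% of the GV level, that of Ddx59 99.9%, that of Ddx3x 80.4% and that of Ddx41 71.8%, against 46.9%, 44.4%, 43.8% and 2.49% in WT. The share was lower than in WT for Ddx47 (13.5% against 21.99%), Dhx15 (33.7% against 45.9%), Ddx19a (33.0% against 43.9%) and Ddx42 (24.4% against 33.9%). These shares are ratios of group means and were not tested other than by the interaction terms, in which Ddx3x, Ddx39, Ddx41, Ddx47 and Ddx59 were called and Ddx19a, Ddx42 and Dhx15 were not.

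**Figure D5:**
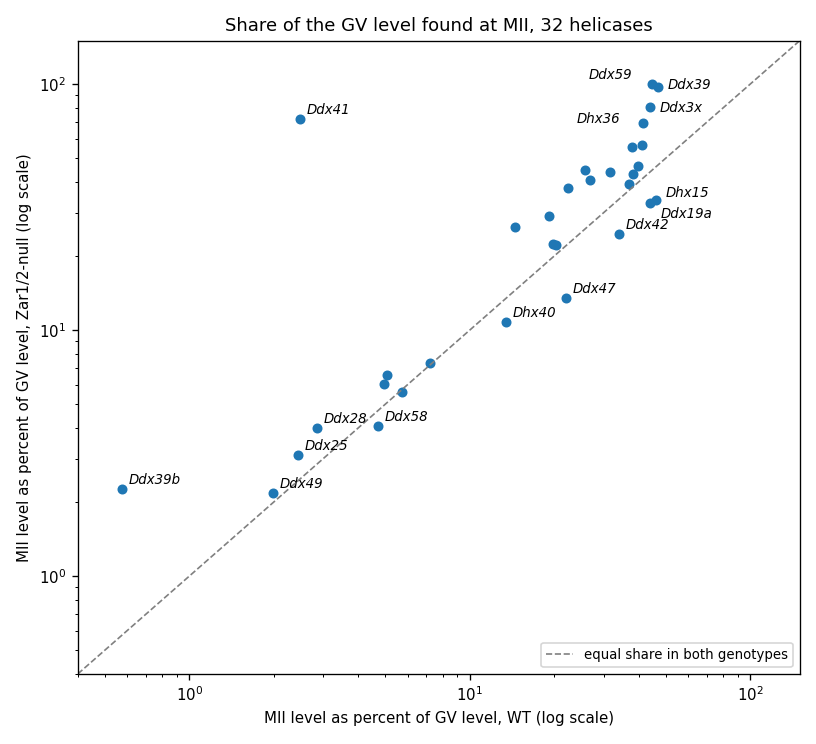
MII level as a percent of the GV level in WT (x axis) and Zar1/2-null oocytes (y axis), both on log axes, from ERCC-scaled group means of the 32 helicases with at least 5 FPKM in WT GV oocytes, where the dashed line marks equal shares. Ddx41 lies far above the line (2.49% in WT, 71.8% in Zar1/2-null), Ddx39b is at the lower left (0.576% and 2.27%) and Ddx47 lies below the line (21.99% and 13.5%).

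Pairs of related genes were set side by side, without a test between genes. Ddx39 and Ddx39b, whose motif windows differ at 7 of 30 bases, stood at 64.0 and 67.4 against 58.2 and 68.7 FPKM in WT growing oocytes, ranges that overlap. At MII they stood at 26.4 and 23.1 against 0.166 and 0.311 FPKM, which is 46.9% and 0.576% of their GV levels. Ddx19a and Ddx19b, identical over the window and neighbours on chromosome 8 (Ddx19b at chr8:113527088-113555651, minus strand), differed in level in WT oocytes, with 44.3 and 44.1 against 1.84 and 2.28 FPKM at GV and 43.9% and 56.3% left at MII. Ddx19b was not called between genotypes at any stage. Only uniquely mapped reads were counted, so reads from stretches that the pair shares are missing from both. Of Ddx21 and Ddx50, 15.8% and 5.05% of the GV level was left at MII, and of Ddx5 and Ddx17 41.0% and 56.7%.

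RNA helicases with other names and known helicase cofactors were set beside the members. Of 18 tested helicases with other names, 3 were higher and 4 lower in Zar1/2-null growing oocytes, 0 and 8 at GV, and 3 and 2 at MII, and of 25 cofactors the numbers were 2 and 4, 0 and 12, and 2 and 4. Of all genes, 10.6% and 24.4%, 2.83% and 40.6%, and 21.5% and 10.3% were called. With the ERCC scaling removed, the helicases with other names gave 4 and 1, 0 and 3, and 2 and 4, and the cofactors 3 and 2, 1 and 3, and 2 and 9. The shares of all genes were then 14.9% and 12.3%, 7.19% and 13.5%, and 24.6% and 23.4%. Dicer1, which cuts microRNA precursors and long double-stranded RNA, had 44.6 and 38.3 FPKM in WT and 18.4 and 18.3 FPKM in Zar1/2-null growing oocytes (log2 difference -1.13 ± 0.15). It was also lower at GV (-1.38) and MII (-1.04). Thoc2, of the complex that recruits Ddx39b to mRNA for export, had 22.3 and 21.1 against 11.1 and 9.44 FPKM in growing oocytes, 15.6 and 11.9 against 2.61 and 2.31 FPKM at GV (-2.09 ± 0.15), and 5.18 and 5.44 against 1.03 and 1.25 FPKM at MII (-1.56 ± 0.15). Dicer1 and Thoc2 kept these calls under each scaling and without any 1 library.

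Skiv2l, of the cytoplasmic complex that feeds mRNA to the exosome, was higher in Zar1/2-null growing oocytes, with 13.2 and 15.4 against 4.12 and 4.58 FPKM (1.51 ± 0.15). It was not called at GV (0.14). At MII Skiv2l was again higher, at a low level, with 1.66 and 2.14 against 0.169 and 0.313 FPKM (1.22 ± 0.15), a call kept under each scaling. At MII Eif4a3, the helicase of the exon junction complex, had 35.5 and 33.6 against 15.4 and 14.2 FPKM (1.17 ± 0.15), and Gle1, which activates the Ddx19 helicases at the nuclear pore, had 45.05 and 45.5 against 18.6 and 23.7 FPKM (1.07 ± 0.17). Gle1 was thus higher at the stage at which Ddx19a was lower. Cwc22, which brings Eif4a3 to the spliceosome, was lower in growing oocytes (-1.30 ± 0.30), a call lost without replicate 1 of either genotype. At GV, Gpatch8 (-0.94 ± 0.14) and Eif4a2 (-0.74 ± 0.22) were lower, and Eif4a2 lost its GV call with the ERCC scaling removed and without replicate 1 of either genotype. At MII Eif4a2 was lower as well (-0.85 ± 0.22), a call kept under each scaling.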

How the data were processed

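Each of the 12 libraries was made from 10 oocytes by Smart-seq2 with ERCC spike-in RNA. Per the study's methods, the authors trimmed reads to 50 bases, mapped them to mm9 with TopHat2 2.1.1, kept unique hits and computed FPKM with Cufflinks 2.2.1 on UCSC gene models. The deposited FPKM values were then scaled by the authors to the ERCC share of the WT growing library of the same replicate number, so that replicates 1 and 2 have different references, and the scaling factors (0.225 to 1) were recovered here from the deposited values. Scaled values stand for RNA per oocyte and carry any error of the spike-in into all genes of a library. No counts are given. Depth was estimated from the steps between low values.

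Groups came from the sample labels. The 11502 genes that reached 1 FPKM in any library were fitted as log2(FPKM + 1) with limma 3.58.1 in R 4.3.3, with 1 term per group over 12 libraries, an intensity trend and Benjamini-Hochberg adjustment over all genes (threshold 0.05), for 7 comparisons. Differences are Zar1/2-null minus WT, and later minus earlier stage. The code of the fit was run on data simulated from its own means and spread with large changes added. Such a run cannot show how the fit does with the true spread, spike-in error or small changes. Tables were handled with Python 3.11.15, pandas 2.3.3 and numpy 2.4.6.

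The members, gene lists and tests were chosen with earlier results of these data known. Genes were named when called with a group mean of at least 5 FPKM, by size of difference (up to 10 per direction between genotypes, 5 between stages and per interaction, 2 per added list), with the 5 most abundant members and the targeted genes. The called members outside this rule (among them Ddx58, Dhx9, Dhx33 and Dhx35 in growing oocytes, Ddx17 and the others beyond the first 10 at GV, Ddx17, Ddx42, Ddx55 and Dhx57 at MII, and Ddx21) were named after their values were seen. Alternatives were other scalings, pseudocount and filters, no trend, only the groups compared, a replicate block, the study's 3-fold rule (means under 1 FPKM set to 1), and leaving out each library. Coordinates and sequences are from mm9 with the GENCODE vM1 annotation.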

Additional observations from a re-analysis of the deposited data

Results flagged for a closer look

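The effect of Zar1/2 loss differed between stages for 13 helicase genes by an interaction term of limma with Benjamini-Hochberg adjustment over the 11502 genes, and each value is a difference of 2 log2 differences. The members called, 6 of 45 lower from growing to GV and 8 higher and 1 lower from GV to MII, stand beside 11.3%, 33.9% and 0.643% of all genes, and at MII genotype and meiotic stage cannot be told apart. From growing to GV the term was -1.04 for Dhx35 (adjusted p = 0.0209), -1.03 for Dhx36 (0.0194), -0.88 for Ddx10 (0.0205), -0.85 for Ddx5 (0.0411), -0.84 for Ddx17 (0.0165) and -0.75 for Ddx51 (0.0286). All 6 kept their sign and lost their call with the ERCC scaling removed and with equal library medians.

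From GV to MII the term was 3.27 for Ddx41 (adjusted p = 5.88e-06 by limma with Benjamini-Hochberg adjustment), 1.04 for Ddx39 (0.0105), 0.98 for Ddx59 (0.0104), 0.85 for Ddx3x (0.0118) and 0.77 for Dhx29 (0.0392). It was 0.68 for Dhx36 (0.0460), which became -0.14 with equal library medians, 0.68 for Ddx58 (0.0293), which became -0.08 and -0.30 under the other scalings, and 0.59 for Ddx10 (0.0440), which became -0.07 and -0.23. It was -0.85 for Ddx47 (0.0422). Only Ddx41 and Ddx47 were called under each of the 3 scalings, and Ddx41, Ddx39 and Ddx3x without any 1 of the 8 libraries.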

How the results depend on the processing

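Of 1184 values of 93 named differences over all settings, 897 kept direction and call, 271 lost the call and 16 changed direction. Member counts follow as higher/lower, against 3/7 (growing), 1/22 (GV), 5/5 (MII), 1/18 (WT GV against growing), 0/45 (WT MII against GV), 0/6 (growing-to-GV interaction) and 8/1 (GV-to-MII interaction). With the ERCC scaling removed they were 6/2, 2/4, 5/14, 2/0, 9/23, 0/0 and 1/4, and with equal library medians 5/2, 3/1, 5/18, 2/0, 16/16, 0/0 and 1/8. With a pseudocount of 0.1 FPKM, lower calls were 4 in growing oocytes, 8 at MII and 9 in WT growth, where 0 were higher, and 0 in the GV-to-MII interaction. With a mean of at least 5 FPKM, lower calls were 4 in growing oocytes, 14 at GV and 1 in the growing-to-GV interaction, and 0 were higher in WT growth. With no filter, 3 were higher at MII, 0 in WT growth, and the GV-to-MII interaction had 5/0. With only the groups compared, lower calls were 13 at GV, 11 in WT growth (0 higher), and 0 in either interaction. The 3-fold rule gave 0/0 in growing oocytes, 1/0 at GV and 1/0 at MII. Other settings moved no count by over 1.5 times.

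Without 1 library at a time, counts ranged over 2 to 3 higher and 4 to 5 lower in growing oocytes, 1 to 2 and 12 to 21 at GV, 3 to 4 and 2 to 3 at MII, 0 and 3 to 17 in WT growth, 0 and 44 to 45 in WT maturation, 0 and 1 to 6 in the growing-to-GV interaction, and 3 to 10 and 0 to 1 in the GV-to-MII interaction. Where this left 1 library in a group, it was assumed to vary like the other groups.

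The direction changed for WT MII against GV in Ddx3x (0.57 with the ERCC scaling removed, 1.22 with equal medians), Ddx5 (0.47, 1.11), Ddx18 (0.32, 0.96), Ddx39 (0.66, 1.30) and Ddx24 (0.36, 1.00), for Ddx5 at GV (0.047 with equal medians), and for the GV-to-MII interaction of Ddx10 (-0.074, -0.23), Ddx58 (-0.082, -0.30) and Dhx36 (-0.14 with equal medians). The scalings differ by 1 factor per library, and which is nearer the RNA per oocyte was not tested.

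The replicate numbers are not stated to mark a shared animal or day, and the libraries did not deviate together by number at each stage (correlation of replicate differences between genotypes 0.163 in growing, -0.117 in GV and 0.0872 in MII oocytes). Both WT growing libraries carry a factor of 1, and the ERCC shares listed by the study fit a scaling by replicate number, so replicates 1 and 2 stand on different references. With the replicate block the counts were 4/6, 1/23, 5/5, 1/18, 0/45, 0/6 and 10/1, and 92 of 93 named differences kept their call. With the numbers crossed at GV, an alternative chosen after seeing the data, the count was 1/23.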

Other observations

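A motif TTTTAT, the letters of a common cytoplasmic polyadenylation element, was looked for on the transcribed strand in the last 100 bases of each transcript whose 3′ UTR was at least that long. It stood in 6 of 43 helicase transcripts (14.0%; Ddx3x, Ddx17, Ddx18, Ddx47, Ddx50 and Dhx35), beside 15.4% of 9779 kept genes. Among helicases with at least 5 FPKM in WT GV oocytes, the 4 with the motif had a median of 29.5% of the GV level left at MII and the 27 without it 20.2%, and for all genes the medians were 35.8% and 18.8%. In Zar1/2-null oocytes the order was the opposite for the helicases (26.3% with and 29.1% without the motif) and the same for all genes (57.4% and 36.3%). Across genes, Spearman's rho of transcript length with the share left in WT was 0.33 for 31 helicases and 0.37 for 5622 genes. Genes are not independent replicates and share the same 4 libraries, so these are descriptions.

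Summed over the 52 helicase genes, the level was 1076 and 1151 FPKM in WT growing, 870.1 and 749 FPKM in WT GV and 215 and 231 FPKM in WT MII oocytes. In Zar1/2-null oocytes it was 1127 and 1072, 586 and 678, and 249 and 236 FPKM.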
